A study of Mus musculus with 12 samples.

Results

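K777A, a form of human DNMT3B in which the lysine K777 is replaced by alanine, was compared with human DNMT3A for the bases that each enzyme preferred next to a CpG site. Both were expressed in mouse embryonic stem (ES) cells that lack Dnmt1, Dnmt3a and Dnmt3b (TKO cells), and their CpG methylation was measured by enhanced reduced representation bisulfite sequencing (eRRBS). Members were taken by the rescue construct in the sample labels, which gave 2 K777A lines and 2 DNMT3A lines, or 4 of the 12 lines of the series. The other groups used here were wild-type DNMT3B in 2 sets of 2 lines and, for single values, the DNMT3B mutants N779A and N656I with 2 lines each. Every line was transfected with the pPyCAGIZ vector, selected in Zeocin at 50 μg/mL for 10 days according to the labels and kept at 25 μg/mL. The vector carried isoform 1 of each enzyme. Per the study, the lines of a group were derived independently of each other, and it made both pooled and single-cell-derived lines, without saying in the sources used here which kind each profiled line was. The study examined the DNMT3B proteins of its lines on western blots, and enzyme amounts were not analysed here. Library names tie set b of the wild-type lines to the K777A experiment and set a to the DNMT3A experiment. K777A and DNMT3A therefore come from different experiments, and their levels were not compared as a result, only the preferences of each line relative to itself.

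DNMT3A and DNMT3B are the enzymes that place methyl groups on unmethylated CpG sites, whereas DNMT1 copies existing methylation to a new DNA strand. In cells without DNMT1, the methylation at a site depends on how often the introduced enzyme acts there, so the flanking bases an enzyme favours can be read from the genome. A loop of the target recognition domain of these enzymes contacts the CpG and the base after it, called the +1 base, and K777 lies in this loop of DNMT3B, where DNMT3A has an arginine. The question was how far the flank preferences of DNMT3B without this lysine resemble those of DNMT3A.

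The K777A lines had 23382756 and 36029921 reads that covered a CpG site, and the DNMT3A lines 25585645 and 26654715. Results rest on every covered CpG site outside CpG-dense stretches, which are places with 12 or more CpG sites in 200 bp. With 12 to 19 CpG sites, methylation was 1.82% and 2.02% in K777A and 7.12% and 7.26% in DNMT3A, and with 20 or more it was below 1% in all 4 lines. This left 8294604 and 9851743 sites in K777A, at 2.35 and 3.23 reads per site, and 5681320 and 4648082 sites in DNMT3A, at 3.85 and 5.11 reads per site. Mean methylation of these sites was 7.13% and 8.22% in the K777A lines, 39.3% and 39.2% in DNMT3A, 15.1% and 13.9% in set b and 17.98% and 16.96% in set a. One wild-type line stood apart, since set a replicate 2 covered only 902315 of these sites, at 16.3 reads per site. In K777A replicate 1, 59.7% of the sites with at least 10 reads were CpG-dense, against 24.0% in replicate 2 and 23.4% and 11.9% in the DNMT3A lines, so no minimum of reads was applied.

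The deposited counts pool both DNA strands, so a T after the CpG on one strand is an A before it on the other, and a sequence and its reverse complement were merged. Sites named by 4 bases, such as ACGT, give the base before and after the CpG. Of the 10 classes of this kind, 4 read the same on both strands and so measure 1 base without this mixing. These are ACGT sites, with T at +1 on either strand, CCGG sites, with G, then GCGC sites, with C, and lastly TCGA sites, with A. A context below is the CpG with 3 bases on either side, reverse complements merged. The contexts below carry the comparison and are written 5′ to 3′ on 1 strand, with the CpG in capitals. First come those in which K777A favoured the site most relative to DNMT3A, then those in which DNMT3A favoured it most, then the highest in K777A, and last the SatII and reference flanks that the study used as substrates.
K777A over DNMT3A, rank 1: cgtCGacg
K777A over DNMT3A, rank 2: catCGatg
K777A over DNMT3A, rank 3: catCGacg
K777A over DNMT3A, rank 4: caaCGatg
K777A over DNMT3A, rank 5: aatCGacg
DNMT3A over K777A, rank 1: ggcCGgcc
DNMT3A over K777A, rank 2: gacCGgtc
DNMT3A over K777A, rank 3: aacCGgtc
DNMT3A over K777A, rank 4: gacCGgcc
DNMT3A over K777A, rank 5: aacCGgtt
Level in K777A, rank 1: ctaCGtag
Level in K777A, rank 2: ctaCGtaa
Level in K777A, rank 3, and in DNMT3A, rank 1: ttaCGtaa
Level in K777A, rank 4: ctaCGtac
Level in K777A, rank 5: gtaCGtaa
SatII flanks: attCGatg
Reference flanks: aggCGccc
The contexts at which K777A gained most on DNMT3A had A after the CpG, and 4 of the 5 also had T before it. All 5 contexts at the other end held CCGG. All 5 contexts with the highest methylation in K777A held TACGTA.

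Relative to the mean of the line, K777A placed its methylation very unevenly over the bases next to the CpG, and DNMT3A spread it nearly evenly. Such ratios can rise less far where the mean is higher, as in DNMT3A, and the part of the level was not tested. At CCGG sites, K777A lines were methylated to 1.97% and 2.01%, DNMT3A lines to 41.5% and 41.4% and set b to 22.9% and 21.2%. Divided by the mean of the line, this was 0.261 ± 0.023 in K777A, 1.06 ± 0.001 in DNMT3A, 1.52 ± 0.010 in set b and 1.48 ± 0.016 in set a (SD, n = 2 lines each). CCGG was thus the lowest of the 10 classes in K777A, the highest in both sets of wild-type DNMT3B, and near the mean in DNMT3A.

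At ACGT sites, methylation was 13.4% and 15.9% in K777A, 42.1% and 42.0% in DNMT3A and 12.1% and 11.1% in set b. The relative level was 1.91 ± 0.037 in K777A, the highest of the 10 classes, 1.07 ± 0.002 in DNMT3A and 0.801 ± 0.001 in set b. At both ACGT and CCGG sites, K777A thus differed from wild-type DNMT3B in the direction of DNMT3A and went beyond it. CCGG is also the sequence that MspI, an enzyme used to fragment the DNA, cuts, and every line was digested with it. GCGC sites stood at 0.821 ± 0.025 in K777A, between 1.17 ± 0.006 in DNMT3A and 0.464 ± 0.008 in set b. TCGA sites stood at 1.09 ± 0.006 in K777A, again between 0.794 ± 0.003 in DNMT3A and 1.49 ± 0.006 in set b. In all 4 classes, both K777A lines lay outside the range of the DNMT3A lines and of the wild-type lines.

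**Figure D1:**
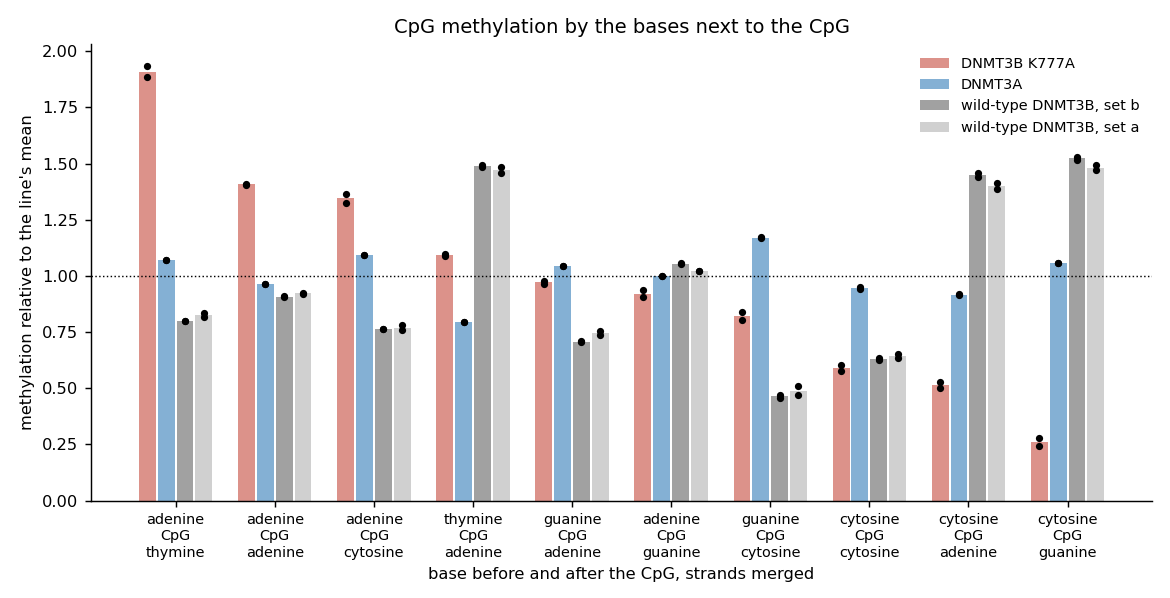
Mean CpG methylation of each class of sites divided by the mean of the line (vertical axis, no unit), by the bases before and after the CpG (horizontal axis, sorted by K777A). Bars are means of 2 lines and dots the single lines. K777A runs from 1.91 for adenine before and thymine after to 0.261 for cytosine before and guanine after, while DNMT3A stays between 0.794 and 1.17.

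The other classes mix 2 different +1 bases. ACGC, with C at +1 on one strand and T on the other, was at 1.34 ± 0.026 in K777A and 1.09 in each DNMT3A line. CCGA, with A on one strand and G on the other, was at 0.513 ± 0.017 in K777A, 0.917 ± 0.001 in DNMT3A and 1.45 ± 0.011 in set b. CCGC was at 0.588 ± 0.019 in K777A and 0.631 ± 0.007 in set b, both below the 0.946 ± 0.005 of DNMT3A. With the +1 base read on both strands of all sites and the 4 bases summed to 100%, K777A gave 36.2% ± 0.412 to T, 25.4% ± 0.008 to A, 24.0% ± 0.043 to C and 14.3% ± 0.360 to G (SD, n = 2). DNMT3A gave 25.8% ± 0.025 to T, 23.0% ± 0.026 to A, 26.5% ± 0.058 to C and 24.7% ± 0.007 to G. Set b gave 22.5% ± 0.012 to T, 29.6% ± 0.163 to A, 16.6% ± 0.088 to C and 31.3% ± 0.063 to G. T thus had the largest share in K777A, C in DNMT3A and G in wild-type DNMT3B, and the smallest went to G in K777A, to A in DNMT3A and to C in wild-type DNMT3B.

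The preference for T over G at +1 was measured within each line as the difference in log2 odds of methylation between ACGT and CCGG sites. K777A lines stood at 2.95 and 3.21 (mean 3.08 ± 0.18, SD, n = 2) and DNMT3A lines at 0.04 and 0.03 (mean 0.03, SD 0.003). In wild-type DNMT3B it was −1.11 in each line of set b, and −1.09 and −1.01 in set a. K777A thus lay on the far side of DNMT3A from wild-type DNMT3B. The difference between K777A and DNMT3A was 3.04, far larger than the spread between lines, and both K777A lines lay above both DNMT3A lines. The exact permutation p was 0.33 (two-sided), and no smaller value can be had from 2 lines a group. N779A, the mutant of a neighbouring residue in the same loop, was at −0.50 ± 0.05, and N656I, a mutant of another loop, at −1.996 ± 0.029.

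The preference for C over A at +1, from GCGC and TCGA sites, was −0.40 and −0.48 in K777A (−0.44 ± 0.06, SD, n = 2) and 0.89 and 0.92 in DNMT3A (0.91 ± 0.02). It was −1.97 and −1.90 in set b and −1.98 and −1.79 in set a. On this contrast K777A lay between wild-type DNMT3B and DNMT3A, and kept the sign of wild-type DNMT3B. The difference between K777A and DNMT3A was −1.35, which exceeded the SD of either group (exact two-sided permutation p = 0.33). N779A was at −0.97 ± 0.01, between K777A and set b.

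**Figure D2:**
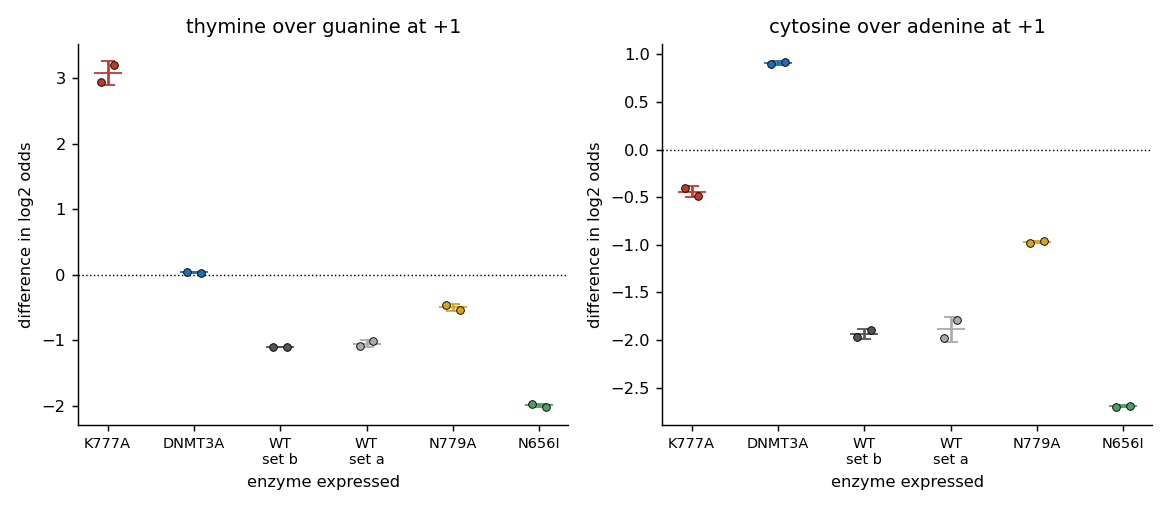
Difference in log2 odds of methylation between sites with thymine and guanine at +1 (left) and with cytosine and adenine at +1 (right), for the enzyme expressed (horizontal axis). Dots are single lines, and the horizontal marks with bars are means ± SD of 2 lines. K777A, at 3.08 on the left, lies above DNMT3A, at 0.03, and on the right, at −0.44, lies below DNMT3A, at 0.91.

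Contexts were then tested with limma on log2 odds, with each line centred on its median context. Between K777A and DNMT3A, 1724 contexts differed at an adjusted p of 0.05 (82.9% of those tested), 865 with higher relative methylation in K777A (41.6%) and 859 lower (41.3%). The change was above 1 on the log2 scale in either direction at 606 of them. The 2 groups of lines did not overlap at 1908 contexts (91.7%). Centring on the median favours a near-even split of higher and lower calls, so their balance is read no further. Without the centring, 0 contexts were called higher and every one lower in K777A, with a median change of −3.09, which is the gap in level and not in preference.

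By the neighbouring bases, each of the 136 CCGG contexts was lower, with a median change of −2.29 against −0.003 over all contexts. Of 136 ACGT contexts, 133 were called higher and 0 lower (median 0.83). TCGA contexts were called higher at 110 and lower at 10 of 136 (0.77), and GCGC contexts higher at 17 and lower at 92 of 136 (−0.48). Where A stood on both flanks of one strand (ACGA), 221 of 256 contexts were called higher and 7 lower (0.70). CCGA contexts were mostly lower, with 190 of 256 lower and 21 higher (−0.68), as were CCGC contexts, with 186 lower and 29 higher (−0.62). ACGC contexts were mostly higher, with 154 of 256 higher and 30 lower (0.35). GCGA contexts were split, with 106 higher and 92 lower (0.03). The ACGG class was split as well, with 74 higher and 116 lower (−0.10).

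To adjust for the experiment, each enzyme was set against the wild-type DNMT3B lines tied to it by library name. This takes out only differences that act alike on the log2 odds of wild-type and test lines, which was not tested for K777A or DNMT3A. The change from set b to K777A then differed from the change from set a to DNMT3A at 1334 of 2061 contexts (64.7%, limma), with 673 higher in K777A (32.7%) and 661 lower (32.1%). The lines were centred here too, which favours such a split. All 136 CCGG contexts were again lower (median −2.28), and 121 of 135 ACGT contexts higher with 0 lower (0.93). The same test between set b and set a called 0 of 2061 contexts (0%), with 223 at an unadjusted p under 0.05, so the wild-type sets gave no call with this number of lines.

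The context ggcCGgcc had the largest change towards DNMT3A. Its methylation was 0.75% and 0.59% in K777A, 46.2% and 47.3% in DNMT3A and 21.4% and 19.2% in set b. K777A lines thus lay far below the others there, with a log2 change against DNMT3A of −3.91 (SE 0.20, adjusted p = 8.12e-06, limma) and an adjusted change of −3.84. The other 4 contexts of this kind had changes between −3.89 and −3.66, K777A levels of 0.42% to 0.94% and DNMT3A levels of 34.1% to 52.4%. Cytosines that escape bisulfite conversion are counted as methylated. The study checked conversion on phage lambda DNA, which was not analysed here. It reported non-conversion rates for its eRRBS data that lay below the K777A levels at these contexts. In stretches with 20 or more CpG sites, the K777A lines had 0.93% and 0.49%, the same range as at these 5 contexts, so the size of these changes is less certain than their direction.

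At catCGatg, methylation was 9.30% and 10.3% in K777A, 14.3% and 13.8% in DNMT3A and 25.0% and 22.8% in set b. Relative to the mean of the line this was 1.30 and 1.25 in K777A but 0.364 and 0.351 in DNMT3A, and the log2 change was 2.50 (SE 0.08, adjusted p = 4.76e-06, limma; adjusted change 2.56). DNMT3A ranked it 2079, next to last of all contexts, and K777A 573. The context with the largest change, cgtCGacg (2.78, SE 0.21), rested on 78 and 88 sites in K777A and 39 and 32 in DNMT3A, and was not tested against the wild-type lines, where set a replicate 2 had 6 sites. The other 3 contexts of this kind, catCGacg, caaCGatg and aatCGacg, had changes of 2.38 to 2.45. K777A ranked these 5 contexts 232 to 573, so they are not its most methylated ones, and DNMT3A ranked them 2063 to 2079.

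SatII is a human satellite repeat and a target of DNMT3B. Its flanks, attCGatg, were methylated to 8.60% and 10.2% in K777A, 22.2% and 22.6% in DNMT3A and 19.6% and 19.2% in set b. Relative to the mean of the line, this was 1.21 and 1.24 in K777A, 0.564 and 0.576 in DNMT3A and 1.30 and 1.38 in set b. On this context K777A thus stayed near wild-type DNMT3B and away from DNMT3A (log2 change 1.61, SE 0.07, adjusted p = 4.96e-06, limma). The reference flanks, aggCGccc, were at 2.36% and 2.47% in K777A, 45.1% and 45.9% in DNMT3A and 4.23% and 2.92% in set b. Their relative level was 0.331 and 0.300 in K777A, 1.15 and 1.17 in DNMT3A and 0.280 and 0.210 in set b, so K777A again lay by wild-type DNMT3B (log2 change −1.98 against DNMT3A, SE 0.08, adjusted p = 4.78e-06, limma).

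The highest contexts of K777A were also high in DNMT3A and in wild-type DNMT3B. The context ttaCGtaa was methylated to 24.4% and 29.1% in K777A, 65.5% and 67.4% in DNMT3A and 25.4% and 24.9% in set b, and had rank 3 in K777A and rank 1 in DNMT3A. Relative to the mean of the line, this was 3.42 and 3.54 in K777A, 1.67 and 1.72 in DNMT3A and 1.68 and 1.79 in set b. A ratio to the mean can rise less far where the mean is higher, as in DNMT3A. On the centred log2 odds, K777A was 0.65 above DNMT3A at ttaCGtaa. Over the 5 highest contexts of K777A, set b had 1.57 to 1.83 and DNMT3A 1.51 to 1.72 times the mean of the line, so wild-type DNMT3B favoured TACGTA as well. ctaCGtaa, at 25.2% and 28.8% in K777A and 64.6% and 63.1% in DNMT3A, had ranks 2 and 4. ctaCGtag, the highest in K777A with 25.2% and 30.8%, ranked 16 in DNMT3A. All 5 of the highest contexts in K777A were still called higher in K777A than in DNMT3A relative to the median context, by 0.61 to 1.117, and 4 of the 5 after adjustment for the experiment. By contrast ttgCGcaa, with 63.5% and 64.7% the third in DNMT3A, was at 11.7% and 15.4% in K777A, rank 187, and at 6.29% and 6.13% in set b.

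Of the 100 contexts with the highest relative methylation in K777A, 50 were among the 100 highest in DNMT3A, 3 among those of set b and 6 among those of set a. DNMT3A shared 5 of its 100 with set b, and the wild-type sets shared 75 with each other. At the low end K777A and DNMT3A shared 1 of 100, and 12 of the 100 lowest in K777A were among the 100 highest in set b. The lowest 100 of K777A held 81 CCGG and 16 CCGA contexts, whereas those of DNMT3A held 32 TCGA, 19 CCGA and 0 CCGG contexts. The highest 100 held 50 ACGT contexts in K777A and 34 ACGC and 22 ACGT contexts in DNMT3A. A list of 100 is 4.85% of the 2061 contexts. The 50 shared by K777A and DNMT3A at the high end are far above that share, while the 3, 5 and 6 shared with wild-type sets and the 1 shared at the low end are read no further.

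Bases farther from the CpG were compared by the effect of each base at a given distance, on the log2 odds, with the base read outwards on both strands. At distance 1, the SD over the 4 bases was 1.030 and 1.1199 for K777A, 0.267 and 0.274 for DNMT3A and 0.786 and 0.763 for set b. K777A had effects of 1.30 and 1.40 for T and of −1.58 and −1.72 for G. DNMT3A had 0.31 and 0.32 for C, 0.14 in each line for T and −0.41 and −0.42 for A. In a joint fit of distances 1, 2 and 3, A was again the lowest in DNMT3A (−0.42 and −0.43), but T (0.32 and 0.30) lay above C (0.18 and 0.20), so the highest base depended on the fit. At distance 2, A was highest in both, with 0.69 and 0.70 in K777A and 0.52 and 0.50 in DNMT3A, against 0.17 in each line of set b. The lowest base there was T in DNMT3A (−0.52 in each line). In K777A it was C with distances taken singly (−0.38 and −0.39, against −0.17 in each line for T) and T in the joint fit (−0.33 and −0.35, against −0.31 and −0.32 for C). At distance 3 the enzymes had opposite signs at G and C and the same sign at A and T. G had an effect of 0.29 in each K777A line and of −0.48 in each DNMT3A line, and C of −0.23 and −0.22 in K777A and 0.26 and 0.27 in DNMT3A. A had 0.26 and 0.25 in K777A and 0.36 and 0.37 in DNMT3A, and T had −0.31 and −0.32 in K777A and −0.15 in each DNMT3A line. Set b had 0.03 for G and 0.17 and 0.18 for C. DNMT3A thus read distances 2 and 3 more strongly than distance 1, and K777A read mainly distance 1.

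**Figure D3:**
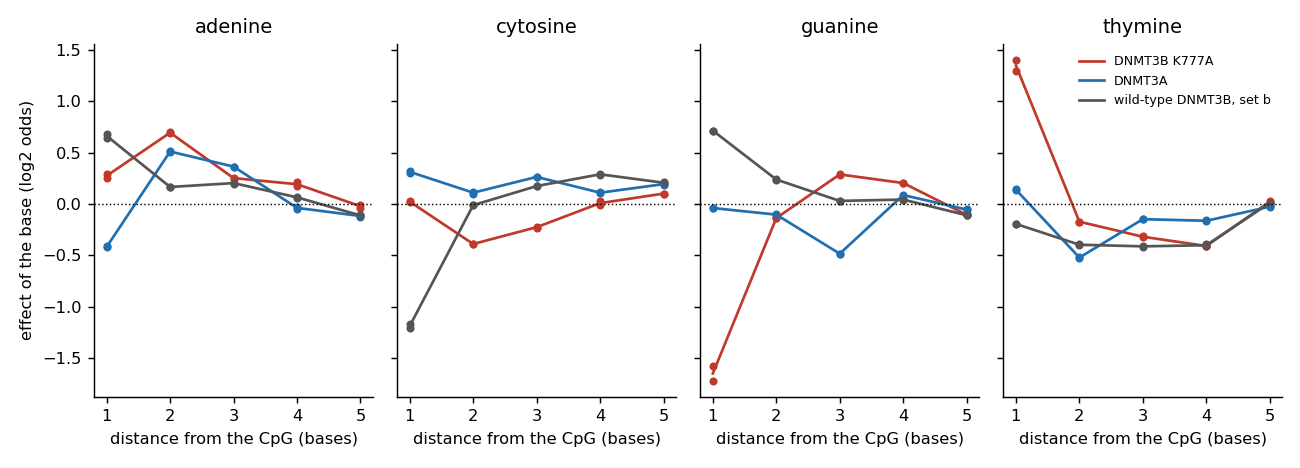
Effect of each base on the log2 odds of methylation (vertical axis) by its distance from the CpG in bases (horizontal axis), 1 panel per base, with both strands read outwards. Dots are single lines and the lines join the means. At distance 1 K777A ranges from −1.72 for guanine to 1.40 for thymine, adenine at distance 2 is high in K777A and DNMT3A alike, and at distance 3 guanine separates them.

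The joint fit, which adds the effects of distances 1, 2 and 3, accounted for 87.6% of the variance over contexts in K777A, 58.3% in DNMT3A and 57.1% in set b. Single bases thus described more of the pattern in K777A than in DNMT3A or wild-type DNMT3B. The contexts also varied more in K777A than in DNMT3A or wild-type DNMT3B, with a range from the 5th to the 95th percentile of 3.16 and 3.36 on the log2 odds scale, against 1.83 and 1.84 in DNMT3A and 2.51 and 2.41 in set b. The range was wider still in N656I, at 3.44 and 3.49, so a wide range was not particular to K777A. Mean methylation was lowest in K777A, against 15.8% and 12.1% in N656I, and the part of the level in these ranges was not tested.

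Over 2061 contexts tested in all 12 lines, the relative methylation of K777A and DNMT3A correlated at Pearson's r = 0.235 (Spearman's rho = 0.267; 0.224 to 0.242 between single lines). The r of K777A was −0.079 with set b and −0.069 with set a, and that of DNMT3A was 0.066 with set b and 0.090 with set a. For comparison, r was 0.985 between the K777A lines, 0.981 between the DNMT3A lines and 0.959 between the wild-type sets. Outside CpG-dense stretches, the r of N779A with DNMT3A (0.218) was close to that of K777A. There K777A had a higher r with DNMT3A than wild-type DNMT3B had. With dense stretches included this turned, with r at 0.472 for K777A, 0.504 for set b and 0.548 for set a over 2079 contexts. In size K777A was farther than wild-type DNMT3B, as the root mean square difference to DNMT3A was 1.03 for K777A, 0.90 for set b and 0.86 for set a. It was 0.84 for N779A and 1.14 for N656I. Without CCGG contexts, K777A (0.861) was no longer farther than set b (0.903) or set a (0.866). Contexts share their library and their neighbouring bases and are not independent replicates, and no p was calculated. The r of K777A with set b was 0.202 with dense stretches included, and without CCGG contexts r was 0.321 with DNMT3A and 0.073 with set b. With fewer than 6 CpG sites in 200 bp the r of K777A fell to 0.174 with DNMT3A and −0.123 with set b, and with at least 10 reads per site, over 751 contexts, to 0.117 and −0.257.

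**Figure D4:**
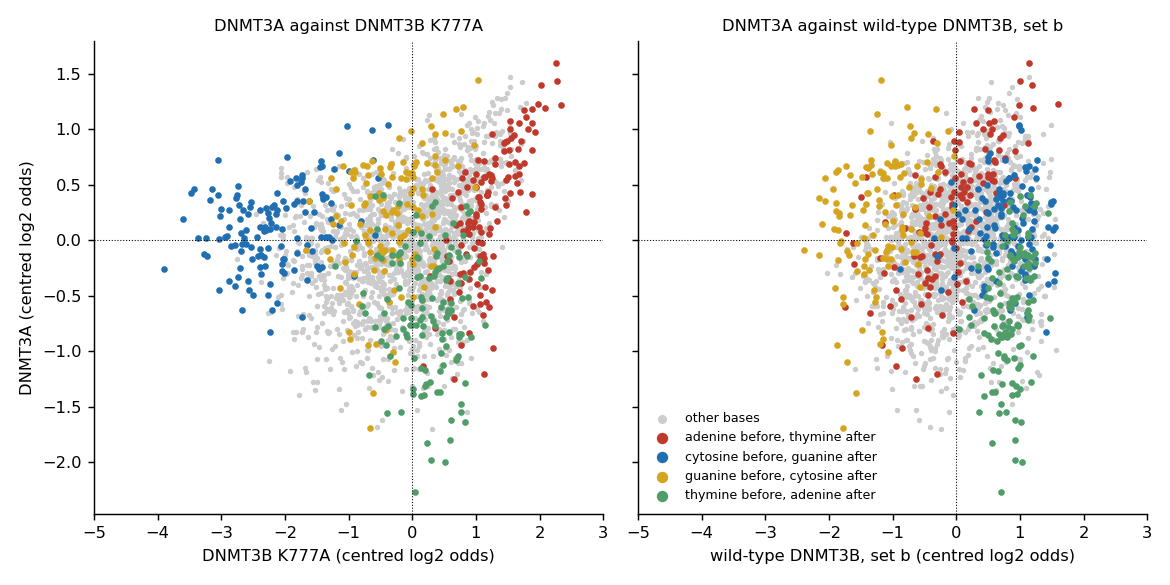
Relative methylation of 2061 contexts in DNMT3A (vertical axis) against K777A (left) and wild-type DNMT3B set b (right), each as log2 odds centred on the median context, means of 2 lines. Each point is 1 context, coloured by the bases before and after the CpG. Contexts with cytosine before and guanine after form the low arm in K777A but not in DNMT3A, and on the right they form no such arm in the wild-type enzyme.

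The likeness was also taken by distance, from the joint fit, where each r rests on 4 base effects. At distance 1, r with DNMT3A was 0.379 for K777A, −0.628 for set b and −0.648 for set a, but the root mean square difference was 0.779 for K777A, 0.670 for set b and 0.653 for set a. With distances taken singly, r at distance 1 was 0.125 for K777A, −0.839 for set b and −0.855 for set a, and the differences were 1.08, 1.01 and 0.987. These values are over 4 base effects and those of the joint fit over 2061 contexts, so only the order of the groups is compared. The order of the +1 bases was thus nearer to that of DNMT3A in K777A than in wild-type DNMT3B, while the sizes of the effects were farther from it, as T and G went beyond DNMT3A and C and A did not reach it. For distance 2, r with DNMT3A was 0.922 for K777A and 0.973 for set b, with differences of 0.137 and 0.167, and of 0.154 for set a. With distances taken singly this order turned, and the difference at distance 2, over the 4 base effects, was 0.319 for K777A, 0.258 for set b and 0.244 for set a. For distance 3, r was −0.148 for K777A against 0.259 for set b and 0.395 for set a. In what was left after the 3 distances, r was −0.140 for K777A, 0.285 for set b and 0.308 for set a. Away from the +1 base, the pattern of K777A was therefore nearer to that of DNMT3A than wild-type DNMT3B was only in the size of the difference at distance 2 in the joint fit.

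The changes from wild-type DNMT3B were also set side by side. From set b to K777A, 1650 of 2061 contexts differed (80.1%, limma), 904 higher (43.9%) and 746 lower (36.2%). From set a to DNMT3A, 1487 differed (72.1%), 754 higher (36.6%) and 733 lower (35.6%). CCGG contexts had a median change of −3.03 in K777A and −0.59 in DNMT3A, and CCGA contexts of −1.85 and −0.95. For ACGT contexts, the medians were 1.22 and 0.28, and for GCGC contexts they were 0.87 and 1.38. TCGA contexts changed by −0.53 and −1.43. In the 4 strand-symmetric classes both medians had the same sign, that of K777A being larger at sites with T or G at +1 and that of DNMT3A larger at sites with C or A. The medians had opposite signs for CCGC contexts (−0.10 in K777A and 0.44 in DNMT3A) and ACGA contexts (0.68 and −0.04). Of 1244 contexts called in both, 1073 changed the same way and 171 the opposite way, and 74.6% of all contexts had the same sign. Both changes subtract a similar wild-type profile, so this tally is read no further.

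Across contexts the changes of both enzymes correlated at r = 0.593 (rho = 0.619; 0.580 to 0.602 between single lines), with a slope of 0.888 for K777A on DNMT3A. They share no line, but both subtract nearly the same wild-type profile, and this term alone gave 0.456 of the 0.593. The likeness of K777A to DNMT3A itself gave 0.117, and the 2 remaining terms, of K777A with set a and of DNMT3A with set b, gave 0.044 and −0.024. A high r between these changes is thus mainly a property of the common baseline. At distance 1 the change for T was 1.48 in K777A and 0.31 in DNMT3A, for C 1.26 and 1.36, for G −2.39 and −0.64 and for A −0.35 and −1.02. The gain at C was the only 1 of these 4 that was nearly equal in both.

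Neighbouring sites share their region and their library, and the windows in which their CpG density was counted overlap, so they were compared directly. There were 13696 pairs of an ACGT and a CCGG site at most 100 bp apart with a read in all 4 lines. In K777A, the ACGT sites of these pairs were methylated to 12.7% and 15.7% and the CCGG sites to 2.06% and 2.08%, whereas in DNMT3A the ACGT sites were at 41.9% and 42.0% and the CCGG sites at 43.0% and 42.5%. The log2 ratio was 2.77 ± 0.21 in K777A and −0.03 ± 0.01 in DNMT3A (SD, n = 2), a difference of 2.79 (exact two-sided permutation p = 0.33). In the K777A lines the ACGT site was the higher one in 27.7% and 35.3% of pairs and the CCGG site in 3.50% and 3.73%, with equal levels in the rest. In the DNMT3A lines the ACGT site was higher in 34.3% and 29.7% and the CCGG site in 35.4% and 30.8%. The enzymes thus differed in the share of pairs with a higher CCGG site.

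For 5786 pairs of a GCGC and a TCGA site, the K777A lines had 5.62% and 6.32% at GCGC and 7.23% and 9.07% at TCGA sites. The DNMT3A lines had 45.9% and 46.5% at GCGC and 30.4% and 30.1% at TCGA sites. The log2 ratio was −0.44 ± 0.11 in K777A and 0.61 ± 0.02 in DNMT3A (SD, n = 2), with opposite signs in all 4 lines and a difference of −1.05 (exact two-sided permutation p = 0.33).

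**Figure D5:**
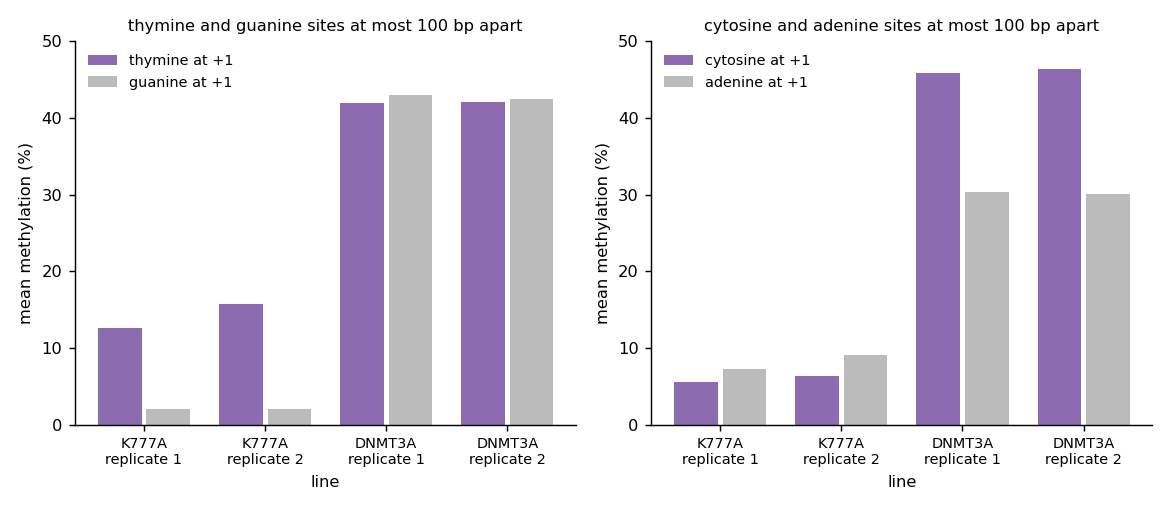
Mean methylation in percent (vertical axis) of neighbouring sites at most 100 bp apart, per line (horizontal axis). The left panel has sites with thymine or guanine at +1 and the right panel sites with cytosine or adenine, each bar being the mean of 1 line over 13696 pairs on the left and 5786 on the right. Guanine sites stay near 2% in both K777A lines and above 42% in both DNMT3A lines.

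Single places show how few reads stand behind 1 site. The stretches below hold the neighbouring sites with the most reads over all 4 lines (forward strand, GRCm38, both CpG sites in capitals).
ACGT and CCGG, intron of Tmem39b, chr4:129683746-129683807: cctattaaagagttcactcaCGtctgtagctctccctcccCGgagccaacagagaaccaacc
ACGT and CCGG, intergenic, repeat-masked, chr12:19777358-19777413: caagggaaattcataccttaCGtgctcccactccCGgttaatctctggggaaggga
GCGC and TCGA, intergenic, chr4:61571831-61571896: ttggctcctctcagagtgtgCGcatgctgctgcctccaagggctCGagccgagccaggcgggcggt
In the Tmem39b intron, the ACGT site had 1 of 9 and 7 of 18 methylated reads in K777A and 8 of 12 and 4 of 9 in DNMT3A. The CCGG site 20 bp away had 0 methylated reads in all 4 lines, and 3 counts of the reads, taken as the limit that a count of 0 allows, are 16.7% of 18 reads in K777A replicate 2 and 25% of 12 in DNMT3A replicate 1 (upper bounds of the exact 95% binomial interval 18.5% and 26.5%). On chromosome 12, the CCGG site had 0 of 12 and 0 of 9 methylated reads in K777A and 3 of 10 and 4 of 16 in DNMT3A, and the ACGT site 2 of 12 and 1 of 9 in K777A and 0 of 10 and 5 of 16 in DNMT3A. At the GCGC site on chromosome 4, K777A had 1 of 10 and 3 of 10 and DNMT3A 5 of 9 and 0 of 9 methylated reads, and its TCGA neighbour had 0 methylated reads in all 4 lines. The fourth place, with a GCGC site at chr4:117120381 and a TCGA site at chr4:117120373 in a UTR of Btbd19, had 0 methylated reads in every line. The 95% exact binomial interval of 7 of 18 reads runs from 17.3% to 64.3%, so the level of a single site was poorly set at this depth, and no comparison of the enzymes was made at single sites. These intervals and limits cover counting error only.

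The contrast between ACGT and CCGG in K777A was seen at every density of CpG sites outside dense stretches. With 1 to 2 CpG sites per 200 bp, the K777A lines had 13.3% and 15.6% at ACGT and 2.01% and 2.03% at CCGG sites, and with 6 to 11 they had 11.9% and 14.7% against 1.71% and 1.77%. DNMT3A had 41.7% and 41.5% at ACGT and 44.1% and 43.7% at CCGG sites with 1 to 2 CpG sites, and 37.4% and 37.3% against 33.1% in each line with 6 to 11. With 12 to 19 CpG sites per 200 bp, K777A fell to 3.53% and 4.72% at ACGT and 1.03% and 0.84% at CCGG sites. With 20 or more, ACGT sites were at 0.64% and 0.63% and CCGG sites at 0.90% and 0.57% in K777A, and at 0.89% and 0.85% and at 0.75% and 0.84% in DNMT3A, so all 4 lines had less than 1% at both classes.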

How the data were processed

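Human DNMT3A or DNMT3B (wild type, K777A, N779A or N656I) was expressed in TKO mouse ES cells, and CpG methylation was measured by eRRBS. Per the study's methods and the submitters' processing notes, the authors trimmed read pairs of 150 bp with Cutadapt (1.12 in the notes) and aligned them with Bismark 0.18.1 and Bowtie 1.2 to mm10 (GRCm38). They counted overlapping bases once, discarded pairs with at least 3 methylated non-CpG cytosines and collapsed both strands. The deposited values are raw counts of methylated reads and of all reads at 21867550 CpG sites per line, and 0 sites lacked a CG in the GRCm38 sequence. The protocol names no molecular identifiers, so PCR copies may count as separate reads, and the spread between lines served as error.

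The level of a class or context was the mean over its covered sites of methylated divided by all reads, outside stretches with 12 or more CpG sites in 200 bp. Contexts with at least 20 sites in every line were tested with limma 3.58.1 (R 4.3.3) on log2 odds (0.5 over the site number was added to the level and to its complement), moderated variances with a trend, Benjamini-Hochberg adjustment and a threshold of 0.05. For a simulation, all 4 lines were drawn around the common mean of K777A and DNMT3A at each of 2080 contexts, with 200 contexts changed. Among these, limma called 150 of 200 changed by 0.5 on the log2 scale and 186 of 200 changed by 1, with 5 and 10 false calls. In the real lines 82.9% of contexts were called, a setting that the simulation did not copy. Within-line contrasts used exact permutation tests (scipy 1.17.1). Named contexts were the 5 with the largest change each way among those called without overlap of the lines, the 5 highest in each enzyme, and the SatII and reference flanks. Named sites were the 2 pairs of each kind with the largest minimum of reads, and genes came from GENCODE M21. The groups, contexts and lists were chosen with earlier results of these data known. Replicate numbers did not pair lines (r of their deviations −0.066). Non-CpG sites were not used here. Chromosome 18 was left out only of the choice of named sites.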

Additional observations from a re-analysis of the deposited data

Results flagged for a closer look

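The preference for C over A at +1 had opposite signs in K777A and DNMT3A in all 4 lines, with a difference of −1.35 on the log2 odds scale. The same held within neighbouring pairs for the log2 ratio of GCGC to TCGA sites, which differed by −1.05. Within pairs, the log2 ratio of ACGT to CCGG sites differed by 2.79. For the last of these, the ratio in DNMT3A was close to 0, at −0.03 and −0.02 in the single lines. Its sign was not stable, as replicate 1 stood at 0.006 with at least 3 reads per site. The exact permutation p of each was 0.33, the smallest that 2 lines against 2 allow. The change from wild-type DNMT3B differed between K777A and DNMT3A at 1334 of 2061 contexts by limma's test of the difference itself.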

How the results depend on the processing

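The differences in T over G, in C over A and in both kinds of neighbouring pairs kept their direction under every alternative run. T over G ranged from 2.67, with at least 10 reads per site and CpG-dense stretches included (added after seeing the data), to 3.11 with fewer than 6 CpG sites in 200 bp, apart from 2.91 to 3.17 with a line left out. C over A ranged from −1.49 with fewer than 6 CpG sites to −0.97 on the log2 of the level. Between K777A and DNMT3A, 1724 contexts were called, and 1602 to 1769 with a line left out. The count was 402 of 751 tested with at least 10 reads per site, which leaves fewer contexts to test, 3106 of 4095 with strands not merged, and 1119 of 1954 with soft-masked repeats only (added after seeing the data). With a term for the replicate number (replicate block), it was 1755. The replicate block left T over G at 3.04 and C over A at −1.35, and it changed no call on these. The quasi-binomial regression called 1708. After adjustment for the experiment, 1334 became 314 of 750 with at least 10 reads, 2164 of 3948 unmerged, 2054 without centring and 564 of 1628 in repeats only, and 1146 to 1453 with a line left out. The r of K777A with DNMT3A, 0.232 over the contexts of these 4 lines, was 0.470 with dense stretches included, 0.174 with fewer than 6 CpG sites in 200 bp, 0.251 and 0.117 with at least 5 and 10 reads, 0.243 on sites covered in all 4 lines, 0.245 with reads summed, 0.321 without CCGG, 0.196 and 0.215 on the log2 of the level and of the rate, 0.214 in repeats only, and 0.224 to 0.237 with a line left out. It exceeded the r with set b under each alternative for which both were computed. It also exceeded the r of both wild-type sets with DNMT3A under each alternative computed for all 3, except with dense stretches included (a comparison added after seeing the data). The r of the changes from wild-type DNMT3B, 0.593, was 0.574 with fewer than 6 CpG sites, 0.663 with at least 10 reads, 0.607 without CCGG, 0.582 unmerged and with the wild-type sets exchanged, 0.572 in repeats only, and 0.567 to 0.601 with a line left out. The cause of these moves was not tested. Depth limits the single sites, at 2.35 to 5.11 reads on average in the 4 lines.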

Other observations

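Over 2000 autosomal tiles of 1 Mb, with each site set against the mean of its context in the line, the regional patterns of K777A, DNMT3A and wild-type DNMT3B were compared. The r between K777A and DNMT3A was 0.869 across tiles (0.774 to 0.854 between single lines), that between K777A and set b 0.907 and that between DNMT3A and set b 0.835. With set a, r was 0.766 for K777A and 0.788 for DNMT3A, so whether K777A was nearer to wild-type DNMT3B than to DNMT3A depended on the set. Between single lines, the r of K777A was 0.812 to 0.851 with set b and 0.504 to 0.854 with set a. Both ranges overlap that with DNMT3A, so neither order exceeded the spread between lines. Between replicates r was 0.824 for K777A, 0.925 for DNMT3A and 0.842 for set b, and 0.576 for set a, where replicate 2 covered few sites. Tiles share their sequence and their coverage and are not independent replicates. The SD over tiles was 0.214 and 0.218 on the log2 scale in K777A, 0.147 and 0.146 in DNMT3A and 0.253 and 0.270 in set b. N779A and N656I were not compared over tiles.

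The pattern of N779A, which changes the asparagine at a nearby position of the same loop, had an r of 0.218 with DNMT3A over 2061 contexts, close to the 0.235 of K777A, while its r with set b was 0.770 and with K777A 0.018. Its root mean square difference to DNMT3A was 0.84, against 1.03 for K777A. The r of N656I was 0.090 with DNMT3A and −0.286 with K777A. Of the 100 highest contexts, N779A shared 31 with DNMT3A, 34 with K777A and 28 with set b.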
